A study of Mus musculus with 11 samples.

Results

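Serine synthesis and the Atf4 response were followed through 10 genes in mouse embryonic stem cells (ESCs): Phgdh, Psat1, Psph, Shmt2, Asns, Chac1, Atf3, Atf4, Ddit3 and Trib3. They were chosen with earlier results of these data known, and were matched by symbol among the protein-coding RefSeq entries. Each had 1 entry in both deposited tables, out of 48942 features for the Dcr libraries and 39889 for the cMyc ones. Dcr KO cells, 3 lines numbered 1, 3 and 4 without Dicer, which cuts precursors into mature microRNAs, were compared with Dcr WT cells, of which there were 2 libraries. A single library of cMyc KO cells was compared with a single library of flox/flox cMyc cells, whose Myc alleles are floxed but undeleted and which the labels call wild type. All cells were ESCs of strain 129S4/SvJae grown on gelatin without feeders, and all RNA was poly(A)-selected and made into directional dUTP libraries, paired-end for Dcr and single-end for cMyc. The labels say neither how the alleles were deleted nor whether the WT libraries are separate cultures, so the p-values rest on the spread among these libraries, which may be technical.

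In the serine pathway, the enzymes encoded by Phgdh, Psat1 and Psph turn a glycolytic intermediate into serine in 3 successive steps, and serine hydroxymethyltransferase in mitochondria, encoded by Shmt2, splits serine into glycine and a folate-bound one-carbon unit. Atf4 is a bZIP transcription factor of the integrated stress response. Its protein is made mainly when the initiation factor eIF2 is phosphorylated, by a control on translation, so its mRNA is not a measure of its activity. Together with C/EBP-family partners it binds composite elements near genes of amino acid synthesis such as Asns, which encodes asparagine synthetase, and near stress genes. These include Chac1, an enzyme gene that degrades glutathione, the factor genes Atf3 and Ddit3 (CHOP), and the pseudokinase gene Trib3.

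The letters TGATGNAA, the core of the C/EBP-ATF composite element, were searched on both strands of the RefSeq promoter windows (build GRCm38.p6; 250 bases before to 50 after each start). All 10 genes had a window, and 4 of them, Asns, Chac1, Atf3 and Trib3, held a match. Among 27025 genes with a window, 4.51% held one, and among all 32851 windows 3.97% did. These matches are shown because Atf4 and C/EBP factors are known to bind this element, and are printed with 11 bases on each side, on the gene's strand, with the matching bases in capitals.
Asns (chr6:7693214-7693243, gene on the minus strand): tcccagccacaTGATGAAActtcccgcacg
Chac1 (chr2:119351038-119351067, gene on the plus strand): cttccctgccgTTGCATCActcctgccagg
Atf3 (chr1:191183425-191183454, gene on the minus strand): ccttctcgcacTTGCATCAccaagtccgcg
Trib3 (chr2:152344028-152344057, gene on the minus strand): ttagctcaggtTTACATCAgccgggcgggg

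The Asns match read in the direction of the gene and began 23 bases before its start. Those of Chac1 and Atf3 began 193 and 110 bases before the start, and that of Trib3 began 14 bases after it. These lay on the opposite strand, so that the core appears as its reverse complement. The E-box CACGTG, to which Myc and Max bind, was in none of the 10 genes' windows, against 8.09% of all genes with a window. A match is a description of letters and not a bound site, and its absence says only that these letters are not in the window. The whole windows of Phgdh, which holds no match and had the largest fold change of the 10 genes, and of Asns and Chac1, which hold one in capitals, are given for comparison.
Phgdh (chr3:98339920-98340219, gene on the minus strand): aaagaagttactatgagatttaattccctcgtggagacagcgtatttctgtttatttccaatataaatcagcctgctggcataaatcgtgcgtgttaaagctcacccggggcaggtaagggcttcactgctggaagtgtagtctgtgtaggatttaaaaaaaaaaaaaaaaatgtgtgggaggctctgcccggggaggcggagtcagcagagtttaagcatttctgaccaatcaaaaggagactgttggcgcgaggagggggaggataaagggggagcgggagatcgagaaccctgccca
Asns (chr6:7693160-7693459, gene on the minus strand): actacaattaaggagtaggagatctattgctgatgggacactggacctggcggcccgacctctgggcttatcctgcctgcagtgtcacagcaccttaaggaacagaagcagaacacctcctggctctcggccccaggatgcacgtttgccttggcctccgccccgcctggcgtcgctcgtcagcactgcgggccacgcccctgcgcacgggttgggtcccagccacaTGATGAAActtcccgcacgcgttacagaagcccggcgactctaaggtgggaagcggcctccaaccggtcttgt
Chac1 (chr2:119350992-119351291, gene on the plus strand): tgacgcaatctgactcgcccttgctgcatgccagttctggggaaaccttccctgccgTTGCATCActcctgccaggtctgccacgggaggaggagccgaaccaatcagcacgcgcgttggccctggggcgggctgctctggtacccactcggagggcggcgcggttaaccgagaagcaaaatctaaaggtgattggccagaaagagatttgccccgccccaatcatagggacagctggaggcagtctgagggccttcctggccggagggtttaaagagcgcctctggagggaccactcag

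Depth was 247574902 to 278006158 recovered reads in Dcr KO lines, against 101815723 and 206721717 in Dcr WT libraries 1 and 2, and 31633011 in cMyc KO against 24660365 in cMyc flox. Dicer1 was at 8553, 9793 and 7743 normalised reads in Dcr KO lines, against 20131 and 18792 in Dcr WT, with the deleted part not stated, and Myc was at 10.9 in cMyc KO against 470.04 in cMyc flox. The ESC markers Pou5f1, Sox2 and Nanog were detected in every library, and of 10 such markers 1 rose and 1 fell in Dcr KO. Markers of other cell types also differed. Of 14 fibroblast markers tested of 15, 3 rose and 8 fell, and of 9 endoderm markers tested of 11, 0 rose and 5 fell. Of 10 neural markers, 6 rose and 1 fell (limma, adjusted p under 0.05). In either direction 78.6% of fibroblast, 55.6% of endoderm, 70% of neural and 20% of ESC markers were called. The share over coding features was 43.8%, with 20.9% higher and 22.9% lower. At an unadjusted p under 0.05, and by edgeR and DESeq2, 0 endoderm markers rose, but 1 did without Dcr WT library 1. The 5 lower endoderm calls were 3 without line 1, line 4 or Dcr WT library 1, and 7 without Dcr WT library 2. ESC markers called higher were 4 without Dcr WT library 1 and 0 without line 1 or line 3, and those called lower were 2 without Dcr WT library 2 and 0 without any 1 Dcr KO line. Summed fibroblast marker levels were 120791 to 144326 in Dcr KO and 70053 to 76020 in Dcr WT, most of it Vim. Summed endoderm marker levels were 3047 to 4121 against 4866 to 9332, and summed neural marker levels 78347 to 92576 against 40139 to 58853. The 3 fibroblast markers that rose were Dcn (2.44 on the log2 scale), Col5a2 (2.14) and Vim (1.88). The largest fall of that list was in the collagen gene Col1a2, at 0.77 to 2.66 in Dcr KO lines, against 292 and 1723 in Dcr WT libraries 1 and 2. The fibroblast marker left untested was Postn, which was at 0 in every Dcr KO line and also in Dcr WT library 1. The part of all these markers in the results below was not tested. In bulk RNA fewer cells of a type and less RNA per cell cannot be told apart.

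In Dcr KO cells, 6 of the 10 genes were lower than in Dcr WT and 0 were higher, in limma with Benjamini-Hochberg adjustment over all 42358 features tested and a threshold of 0.05. All 10 passed the filter on low values. Phgdh, Psat1 and Psph, the 3 genes of serine synthesis itself, fell to 0.33, 0.56 and 0.50 times their WT level, and Asns, Chac1 and Atf3 to 0.67, 0.42 and 0.53 times. Atf4, Shmt2, Ddit3 and Trib3 did not pass. The background is high in this comparison: 22.9% of 16322 coding RefSeq features tested were called lower and 20.9% higher, and over all features 14.8% lower and 16.9% higher, 31.7% in either direction. The median log2 fold change was −0.71 over the 10 genes and −0.06 over all coding features. Since the 10 genes and the lists below were chosen with earlier results of these data known, their counts and medians beside the background are a description only. At an unadjusted p under 0.05, 7 of the 10 genes were lower and 0 higher, and edgeR and DESeq2 on recovered reads each called 6 lower and 0 higher. Without Dcr KO line 3 or line 4 the number of lower calls was 3.

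Phgdh encodes phosphoglycerate dehydrogenase, the first and committing step of serine synthesis. It was at 7134, 5268 and 4507 normalised reads in Dcr KO lines 1, 3 and 4, against 23169 and 12243 in Dcr WT libraries 1 and 2. Every Dcr KO line was below both WT libraries, but the WT libraries themselves differed by 0.92 on the log2 scale, more than for any other of the 10 genes. The log2 fold change on the log2(value + 1) scale was −1.61 ± 0.27 (SE; limma adjusted p = 0.00240). Leaving out Dcr WT library 1 gave −1.15 and leaving out library 2 gave −2.07, and the call held without any 1 library. RefSeq lists a Phgdh pseudogene, and sharing of reads with it was not examined.

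Psat1 encodes phosphoserine aminotransferase, the second step. Its level was 58388, 44664 and 34774 in Dcr KO lines 1, 3 and 4, against 88539 and 73060 in Dcr WT libraries 1 and 2. The groups did not overlap, with line 1 nearest to WT, and the log2 fold change was −0.84 ± 0.21 (SE; limma adjusted p = 0.0147). The call was lost without line 3 (adjusted p = 0.0668) or line 4 (adjusted p = 0.0540).

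Psph encodes the phosphatase that completes the pathway. It stood at 6517, 5018 and 4505 in Dcr KO lines 1, 3 and 4, against 9904 and 11221 in Dcr WT libraries 1 and 2. The mean in Dcr KO was 5347 ± 1045 (SD, n = 3) and that in Dcr WT 10562 ± 931 (SD, n = 2), with no overlap. The log2 fold change was −0.997 ± 0.18 (SE; limma adjusted p = 0.00326), and the call held without any 1 library.

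Shmt2, which acts on serine after it is made, was not called, whereas the 3 synthesis genes were, and its difference from them was not tested. It was at 65528, 53485 and 38485 in Dcr KO lines 1, 3 and 4, against 58238 and 37307 in Dcr WT libraries 1 and 2. The groups overlapped, with lines 3 and 4 between the WT libraries and line 1 above both. Its log2 fold change was 0.14, with a 95% interval of −0.42 to 0.69 (limma adjusted p = 0.698). It turned to −0.18 without Dcr WT library 2 and to −0.04 without Dcr KO line 1.

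Atf4 itself was at 58009, 53999 and 43719 in Dcr KO lines 1, 3 and 4, against 48861 and 66498 in Dcr WT libraries 1 and 2. The WT libraries lay on either side of lines 1 and 3. The log2 fold change was −0.15, with a 95% interval of −0.55 to 0.26 (limma adjusted p = 0.568). Without Dcr WT library 2 it was 0.08.

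Among the targets, Asns was at 73003, 52345 and 47832 in Dcr KO lines 1, 3 and 4, against 90098 and 80492 in Dcr WT libraries 1 and 2. Line 1 came close to WT library 2 without reaching it. The log2 fold change was −0.59 ± 0.19 (SE; limma adjusted p = 0.0404). This call was lost without line 3 (adjusted p = 0.161), line 4 (0.137) or Dcr WT library 1 (0.0626), with upper quartile scaling (0.0574) and with a pseudocount of 0.1 (0.0624).

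Chac1 was at 2634, 1622 and 1541 in Dcr KO lines 1, 3 and 4, against 4766 and 4115 in Dcr WT libraries 1 and 2. Lines 3 and 4 lay close together and line 1 above them, and all 3 were below WT. The log2 fold change was −1.24 ± 0.23 (SE; limma adjusted p = 0.00414), and the call held without any 1 library. After Phgdh this was the second largest change among the 10 genes.

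Atf3, the gene of a stress-induced bZIP factor, was at 602, 462 and 334 in Dcr KO lines 1, 3 and 4, against 837 and 869 in Dcr WT libraries 1 and 2. The WT libraries were nearly equal and the lines spread below them. The log2 fold change was −0.91 ± 0.26 (SE; limma adjusted p = 0.0245). It was not called without line 3 (adjusted p = 0.0788) or line 4 (adjusted p = 0.0709).

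Ddit3 encodes CHOP, a factor that promotes cell death under prolonged stress. It was at 762, 599.6 and 898 in Dcr KO lines 1, 3 and 4, against 988 and 966 in Dcr WT libraries 1 and 2. The groups did not overlap, but the log2 fold change of −0.39 did not pass (95% interval −0.87 to 0.08; limma adjusted p = 0.184). Trib3, whose product binds Atf4 and CHOP and restrains them, was at 4996, 4141 and 3904 in Dcr KO lines 1, 3 and 4, against 5450 and 5948 in Dcr WT libraries 1 and 2. Its groups did not overlap either, and its log2 fold change of −0.40 missed the threshold (95% interval −0.76 to −0.04; limma unadjusted p = 0.0333, adjusted p = 0.0852), but passed with total count scaling (−0.48, adjusted p = 0.0381).

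**Figure D1:**
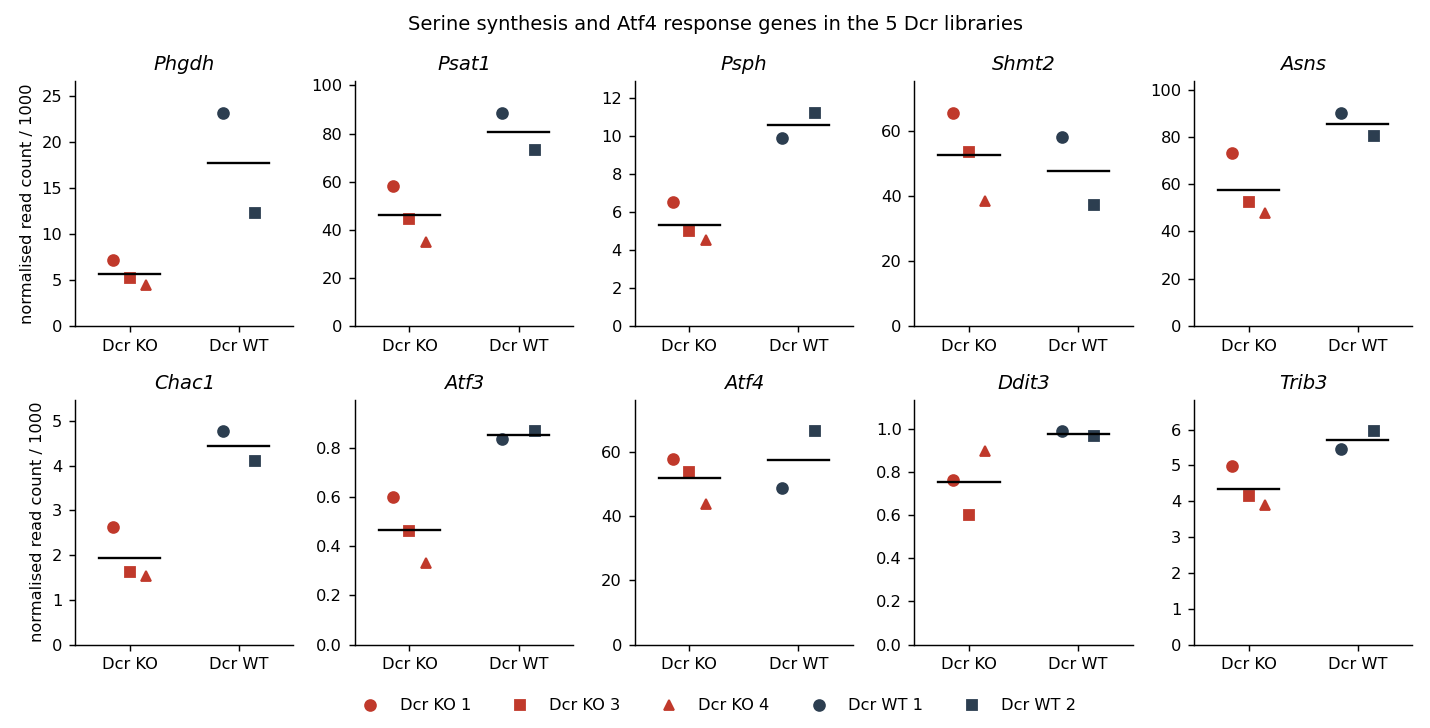
Normalised read counts (scaled as the vertical axes state, each starting at 0) of the 10 genes in the 3 Dcr KO lines and the 2 Dcr WT libraries; points are libraries and bars are group means. In 8 genes every Dcr KO line lies below both WT libraries, and in Shmt2 and Atf4 the groups overlap.

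For 8 of the 10 genes every Dcr KO line was below both WT libraries, while 35.5% of coding features showed that pattern and 31.3% the opposite one. The lines were ordered alike in 9 of the 10 genes, with line 1 highest, then line 3, then line 4; Ddit3, with line 4 highest, was the exception. That order was seen in 34.2% of coding features as deposited. With total count scaling it was seen in 6 of the 10 genes and 16.1% of coding features. The sum over the 10 genes, most of it Psat1, Shmt2, Asns and Atf4, was 277573, 221603 and 180501 in Dcr KO lines 1, 3 and 4, against 330849 and 292720 in Dcr WT libraries 1 and 2.

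**Figure D2:**
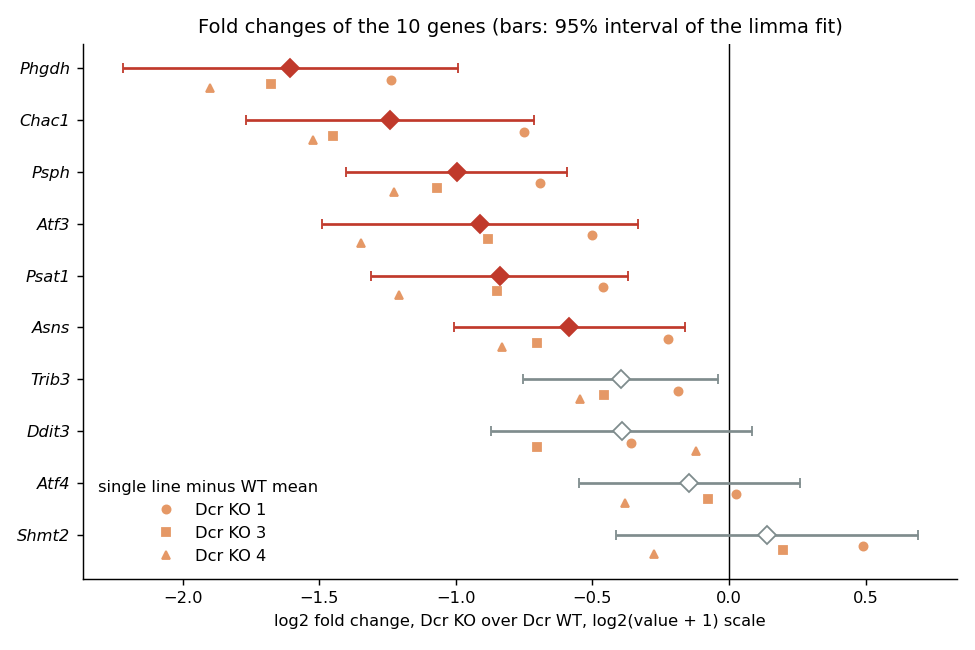
Log2 fold changes of the 10 genes, Dcr KO over Dcr WT, from the limma fit on log2(value + 1), with 95% intervals; filled diamonds passed an adjusted p of 0.05, open ones did not, and small symbols are single lines minus the WT mean. Estimates run from −1.61 for Phgdh to 0.14 for Shmt2, and line 1 lies highest of the lines in 9 of the 10 genes.

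Reads of each gene per read of Atf4 in the same library need no scaling between libraries. Phgdh had 12.3, 9.76 and 10.3 reads per 100 Atf4 reads in Dcr KO lines 1, 3 and 4, against 47.4 and 18.4 in Dcr WT libraries 1 and 2. Chac1 had 4.54, 3.00 and 3.53, against 9.75 and 6.19. Of the 9 genes set against Atf4 in this way, 6 were lower in every Dcr KO line than in both WT libraries, namely Phgdh, Psat1, Psph, Chac1, Atf3 and Trib3, and 0 were higher in every line. On the same measure 24.1% of coding features were lower in every Dcr KO line and 31.3% higher. Trib3 did so by a narrow margin, with 8.61, 7.67 and 8.93 in Dcr KO against 11.2 and 8.95 in Dcr WT. Asns overlapped on this measure, with 126, 96.9 and 109 reads per 100 Atf4 reads in Dcr KO against 184 and 121 in Dcr WT, as did Shmt2 and Ddit3. These ratios show unequal change of 2 genes and not that either stayed constant.

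Profiles like those of Phgdh and Atf4 were sought among 13141 coding features with a mean of at least 100, by the Euclidean distance between log2(value + 1) values over the 5 libraries, each centred on its mean. Nearest to Phgdh were Grm2 (distance 0.19), Hs3st1 (0.21) and the ribosomal protein gene Rps18 (0.29), whose reads may be shared with near-identical copies. Among the nearest to Atf4 were Mphosph6 (0.08) and Jade3 (0.08). With so few libraries such likeness is a description of these samples.

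Other genes of serine, glycine and folate metabolism split in direction. Of 18 matched genes of 19 listed, 4 rose, 5 fell and 9 did not pass, so 50% were called beside 43.8% of coding features in either direction, and the median log2 fold change was −0.14. The glycine cleavage genes Gldc (−1.22) and Gcsh (−1.08) fell, as did Shmt1 (−0.98), the cytosolic counterpart of Shmt2, and Aldh1l1 (−1.46), which oxidises formyl-folate in the cytosol. Gldc was at 45223, 37866 and 26334 in Dcr KO lines, against 70013 and 98042 in Dcr WT. The last of the 5, Cbs (−0.89), which condenses serine with homocysteine, is named because of the small count after its value was seen. Those that rose included Aldh1l2 (1.03), the mitochondrial counterpart of Aldh1l1, Cth (0.88), which makes cysteine, and the folate dehydrogenase gene Mthfd2l (0.87). Without Dcr KO line 1, and also without line 3, 0 of the list were called higher and 5 lower. All 5 that fell kept their call without any 1 library.

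Known Atf4 targets outside the 10 genes, among them amino acid transporters, synthesis enzymes and stress genes, also moved both ways. Of 30 matched genes of 31 listed, 4 rose, 8 fell and 18 did not pass, 40% beside the 43.8% of coding features, with a median of −0.19. The lower ones included Ddit4 (−1.99), an inhibitor of mTORC1, Cebpb (−1.78), Slc7a5 (−1.19), the leucine transporter gene, and Slc43a1 (−0.88), another transporter of large neutral amino acids. Slc7a5 was at 37527, 32054 and 30487 in Dcr KO lines, against 75217 and 76204 in Dcr WT. The 4 that rose were Jdp2 (2.06), Gpt2 (0.79), a mitochondrial transaminase gene, Ppp1r15a (0.57), which directs a phosphatase to eIF2, and Pck2 (0.52). Ddit4 was at −2.59 and −1.40 without Dcr WT libraries 1 and 2, and Cebpb, which is in the list of bZIP factors too, at −0.69 and −2.87. The calls of Pck2 and Cebpb were lost without any 1 Dcr KO line or Dcr WT library 1, that of Ppp1r15a without any 1 line or library 2, and that of Gpt2 without line 3. Without Dcr KO line 3 the list had 1 gene higher and 4 lower, without line 1 2 and 5, and without line 4 3 and 4.

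Aminoacyl-tRNA synthetases of the cytosol, several of which are Atf4 targets, were called in 6 of 17 matched genes of 20 listed, 35.3% beside the 43.8%. Of these, 1 rose and 5 fell, and the list median was −0.31. The count depended on scaling: 1 was higher and 9 lower with total count scaling, and 1 higher and 3 lower with upper quartile scaling. Wars (−0.81), Kars (−0.65), Cars (−0.64) and Yars (−0.54) fell, as did Hars (−0.46), named after its value was seen because it completes the 5. Gars (0.86) rose to 151434, 122702 and 98436 in Dcr KO lines, against 75788 and 59944 in Dcr WT. Without line 3 or line 4 only 1 of the list was lower, because Kars, Cars, Yars and Hars lost their calls; Yars and Hars also lost theirs without Dcr WT library 1, and Gars lost its call without line 1 or line 3.

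Upstream of Atf4, genes of the eIF2 kinases, phosphatase subunits and eIF2 factors were called in 4 of 17 cases, all higher, with a list median of 0.01. This share of 23.5% lay below the 43.8% of coding features called in either direction, of which 20.9% were higher and 22.9% lower. Eif2ak3 (0.94), which encodes the kinase PERK of the endoplasmic reticulum (ER), was at 8557, 8218 and 8431 in Dcr KO lines, against 4321 and 4406 in Dcr WT. Both groups were tight and apart, and its call held without any 1 library. Eif2s2 (0.74), the eIF2 beta subunit, Eif2ak2 (0.58), the kinase PKR that senses double-stranded RNA, and Ppp1r15a also rose, but Eif2s2 and Eif2ak2 lost their calls without line 1 or line 3. In limma 0 fell, at an unadjusted p under 0.05 3 were lower, edgeR called 1 lower and DESeq2 0.

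The other branches of the unfolded protein response run through Atf6 and through Ern1 and Xbp1 and raise ER chaperones. Their genes were called in 12 of 21 cases, 57.1% beside the 43.8% of coding features, with 10 higher, 2 lower and a median of 0.41. Over coding features 20.9% were called higher and 22.9% lower. Pdia4 (1.23), a disulfide isomerase gene, was at 58874, 57164 and 52601 in Dcr KO lines, against 23831 and 24170 in Dcr WT. Dnajb9 (1.08), a co-chaperone gene, Atf6b (1.00) and Sel1l (0.82), part of ER-associated degradation, rose as well, and each of these 4 kept its call without any 1 library. The 2 that fell were Sdf2l1 (−0.98) and Manf (−0.77), which encode small ER proteins. The number higher was 6 without line 3 and 7 without line 1.

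Other bZIP factors, of the CREB/ATF and C/EBP families and of the AP-1 (Jun, Fos, Batf, Jdp2), Nfe2l and Maf groups, were called in 12 of 23 matched genes of 24 listed. This was 52.2% beside the 43.8% of coding features, with 6 higher, 6 lower and a median of 0.10. Batf3 (−3.36), Fosl1 (−2.13), Cebpb and Cebpa (−1.61) fell. Jdp2, Jund (1.25), Atf5 (1.02), a close relative of Atf4, and Jun (0.99) rose. Atf5 was at 8234, 6632 and 5421 in Dcr KO lines, against 3802 and 2834 in Dcr WT, and its call held without any 1 library, whereas Jun lost its call without line 1 or line 3. Without line 1, and also without line 3, 4 were called higher and 4 lower.

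**Figure D3:**
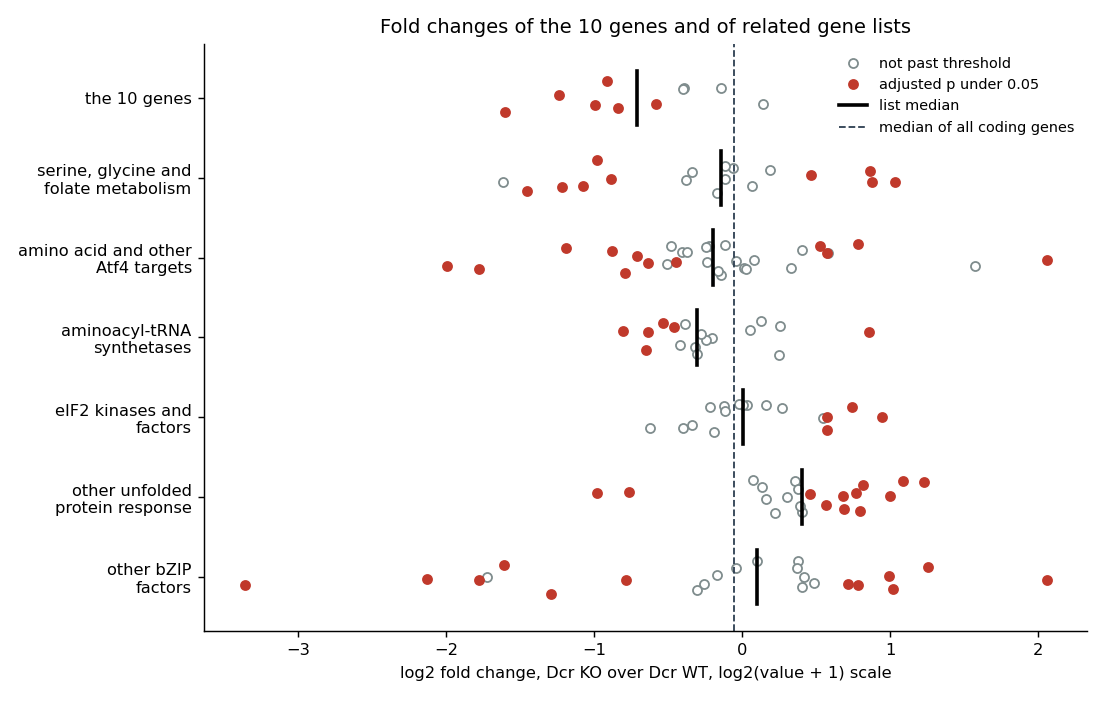
Log2 fold changes, Dcr KO over Dcr WT on the log2(value + 1) scale, of each gene tested in the 10 genes and in 6 related lists; filled points passed an adjusted p of 0.05 in limma, open ones did not, black bars are list medians and the dashed line is the median of all coding features. List medians run from −0.71 for the 10 genes to 0.41 for the other unfolded protein response branches.

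In the cMyc libraries, with 1 library a group and therefore no test, 9 of the 10 genes had a ratio of cMyc KO over cMyc flox above 1, beside 64.6% of coding features with at least 100 reads over both libraries, and 2 were past 1.5-fold, both higher. With total count scaling 8 were above 1 and 1 was past 1.5-fold, and the median ratio of coding features was 0.98. The shares of coding features given for the cMyc libraries are those at the deposited scaling. Chac1 was at 203 normalised reads in cMyc KO and 75.9 in cMyc flox, a ratio of 2.68 (95% exact interval 2.04 to 3.54). Trib3 was at 613 and 374, a ratio of 1.64 (1.44 to 1.87), and fell short of 1.5-fold with total count scaling. Ribosomal RNA features held 30.0% of the reads in cMyc KO and 28.1% in cMyc flox. With these features left out of the total, and with upper quartile scaling, Chac1 and Trib3 were both past 1.5-fold. Among 11338 coding features with at least 100 reads over both libraries, 4.08% were past 1.5-fold higher and 3.6% lower (10.2% and 6.91% of coding features with a read in both libraries), and the median ratio was 1.08, so a ratio near 1.08 is that of the median coding gene. The intervals cover counting error only.

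The other 8 genes stayed within 1.5-fold. Psat1 was at 7034 in cMyc KO and 5026 in cMyc flox (ratio 1.40, interval 1.35 to 1.45), and Atf4 at 3656 and 2863 (1.28, 1.22 to 1.34). Both ratios lay above the coding median by more than their counting error, as did those of Shmt2 and Asns but not that of Psph. Shmt2 was at 3202 in cMyc KO and 2672 in cMyc flox (1.20, 1.14 to 1.26), Psph at 732 and 618 (1.19, 1.06 to 1.32) and Asns at 6388 and 5448 (1.17, 1.13 to 1.22). Phgdh was at 3170 in cMyc KO and 3242 in cMyc flox, a ratio of 0.98 (0.93 to 1.03), below the coding median. Atf3, at 92.4 and 90.6, and Ddit3, at 97.0 and 85.4, had intervals that held 1 (0.76 to 1.37 for Atf3 and 0.84 to 1.54 for Ddit3), and Atf3 was at 0.925 with total count scaling.

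**Figure D4:**
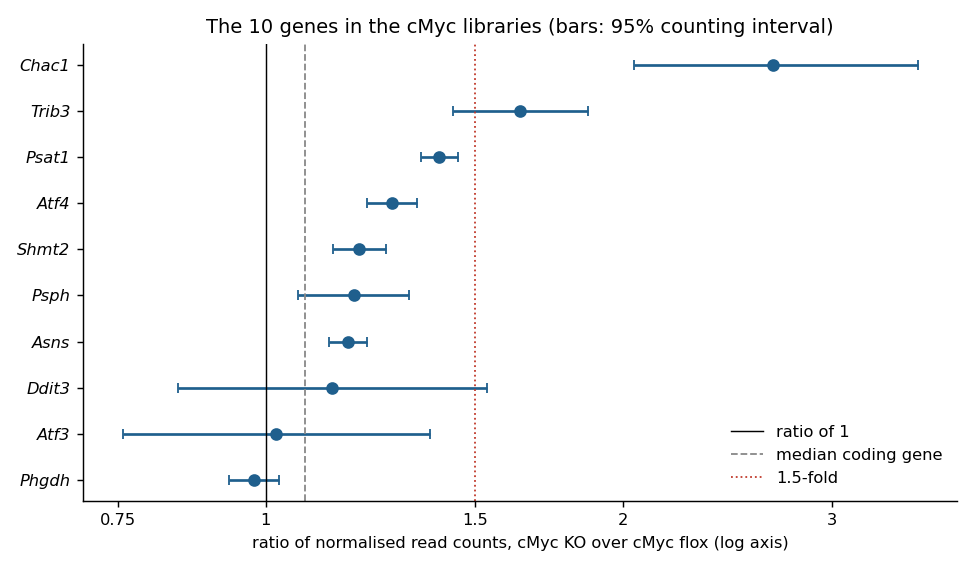
Ratios of normalised read counts, cMyc KO over cMyc flox, on a log axis, with 95% exact counting intervals from recovered reads; lines mark a ratio of 1, the median coding gene at 1.08 and 1.5-fold. Chac1 at 2.68 and Trib3 at 1.64 are past 1.5-fold, and Phgdh at 0.98 is the lowest of the 10 genes.

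The genotypes shared a low Myc level, −3.44 on the log2 scale in Dcr KO against Dcr WT and a ratio of 0.023 in cMyc KO over cMyc flox, but the 10 genes had different values in each. Chac1 was at 0.42 times WT in Dcr KO and 2.68 times flox in cMyc KO, Psat1 at 0.56 and 1.40 times, and Phgdh at 0.33 and 0.98 times. The difference between the comparisons was not tested, since the cMyc libraries have no replicates and come from another line and library type. Of the related lists, 3 of 26 Atf4 targets with at least 100 reads were past 1.5-fold higher in cMyc KO, namely Herpud1 (2.04), Slc7a3 (1.52) and Slc6a9 (1.51), 1 of 15 serine and folate genes, Aldh1l1 (1.56), 1 of 17 eIF2 genes, Eif2b4 (1.52), and 3 of 16 other bZIP factors, Cebpd (2.35), Atf5 (1.60) and Fos (1.54); 0 of these lists, of the synthetases or of the other unfolded protein response genes were past 1.5-fold lower, beside backgrounds of 4.08% higher and 3.6% lower. With total count scaling only Herpud1 and Cebpd of these 8 genes were past 1.5-fold higher, and 1 bZIP factor and 1 unfolded protein response gene were past it lower. These 8 genes were named after their values were seen. Markers of other cell types differed in these libraries too. Of the fibroblast markers 5 of 9 were past 1.5-fold higher (3 with total count scaling, 5 with ribosomal RNA features left out of the total), with a sum of 17266 in cMyc KO against 11773 in cMyc flox. Of the neural markers 2 of 8 were (1 with total count scaling), with a sum of 6282 in cMyc KO against 4757 in cMyc flox. Their part in the ratios was not tested.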

How the data were processed

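The deposited tables are 2, split by Dcr and cMyc libraries. Their values are a normalised signal per feature, reads scaled by a single factor in each library, which the deposited values show: at least 99.9975% of the values of each column came out as whole reads, to within 0.05 of a read. The submitters' processing notes name TopHat, Bowtie, DESeq and mm9, without role or version; counting tool, gene models, strand use and filters are not stated there. Value columns left without a sample numbered 0. The 4 ChIP libraries were not used here.

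Symbols came from RefSeq's GRCm38.p6 gene table, which matched 19362 of 19683 coding identifiers for Dcr and 16246 of 16484 for cMyc. The Dcr comparison used limma 3.58.1 in R 4.3.3, with a mean-variance trend, on log2(value + 1) over 42358 features that reached a value of 1 in 2 or more libraries, with Benjamini-Hochberg adjustment. The plan assigned this test to normalised values. Recovered reads were also tested with edgeR 4.0.16 and DESeq2 1.42.0, which called 13060 and 13926 features. The limma fit was also run on simulated counts with known fold changes and the same dispersion for every feature. That run does not address the spread among these libraries. cMyc ratios have exact Clopper-Pearson intervals on reads (scipy 1.17.1) at 95%; that of Ddit3, from 107 and 81 reads, runs from 0.84 to 1.54, and that of Asns from 1.13 to 1.22, so depth limits the low genes.

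The 10 genes and the lists were chosen with earlier results of these data known. Genes are named by rule: the 10 genes, Dicer1, Myc, up to 4 called genes per list and direction by size of change, and 3 nearest profiles for Phgdh and Atf4. Named outside it are Pou5f1, Sox2, Nanog and Postn, and the genes said above to be named after their values were seen. Some genes that this rule names are not reported here.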

Additional observations from a re-analysis of the deposited data

How the results depend on the processing

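For Dcr, the number of features called, the list counts and the fold changes of the 10 genes were recomputed under 15 alternatives. For cMyc, the ratios of the 10 genes and how many were past 1.5-fold were recomputed under 5. The cMyc list counts were recomputed under the other scalings alone. Nearest profiles, medians of the related lists and reads per Atf4 read were not recomputed. Phgdh, Psph, Chac1 and Ddit3 kept direction and side of the threshold in all 15. Asns (−0.59 as reported) was not called with a pseudocount of 0.1 (−0.59) or upper quartile scaling (−0.51), and Trib3 was called with total count scaling (−0.48). Leaving out 1 library at a time, the log2 fold change ranged from −1.03 to −0.66 for Psat1, −0.77 to −0.46 for Asns, −1.12 to −0.69 for Atf3, −0.18 to 0.46 for Shmt2 and −0.37 to 0.08 for Atf4; Shmt2 turned negative without Dcr KO line 1 (−0.04) or Dcr WT library 2 (−0.18), and Atf4 positive without Dcr WT library 2 (0.077). In the same leave-one-out fits the number of the 10 genes called lower ranged from 3 to 6, and that of all features from 3782 to 8022 higher and 3847 to 5935 lower; under the other alternatives 5 to 7 of the 10 genes were lower. Fitted on coding RefSeq features alone, 3760 and 4109 were called. Under the alternatives that kept every Dcr library, list counts varied as well. The other Atf4 targets had 2 to 5 higher and 5 to 11 lower, and the synthetases 1 higher and 3 to 9 lower. The other unfolded protein response genes had 10 to 14 higher and 2 lower. The bZIP factors had 6 to 10 higher and 4 to 6 lower. The serine and folate genes had 3 to 4 higher and 5 to 7 lower, and the eIF2 genes 3 to 4 and 0 to 2. Without a WT library the lone one is assumed to vary like the KO lines. With total count scaling 1 gene, Chac1, was past 1.5-fold in cMyc KO, and 2 were with ribosomal RNA features left out of the total. Ratios of the well-covered genes moved by a common factor, down to 0.91 of the deposited scaling. The median log2 fold change of coding features was −0.06 as deposited, −0.14 with total count and 0.02 with upper quartile scaling. No paired analysis was possible because the labels pair no Dcr KO line with a Dcr WT library. Depth limits Atf3 and Ddit3 in the cMyc libraries.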
